A study of Homo sapiens with 36 samples.

Results

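The 54 genes described here carry out mitosis or the step into it. They were chosen by name, as genes for mitotic kinases and their cyclins, kinetochore, spindle and condensin proteins, and all 54 were found among the 37549 gene symbols of the count table. Their RNA was followed in 3 B lymphoblastoid leukaemic cell lines after exposure to a drug or to its vehicle, DMSO. MEC1 cells were exposed for 48 h, JVM2 cells for 72 h and EHEB cells for 96 h. The drugs were 50 µM fludarabine, a purine analogue that blocks DNA synthesis, 5 µM ibrutinib, an inhibitor of Bruton tyrosine kinase (BTK), and 10 µM idelalisib, an inhibitor of the delta form of phosphoinositide 3-kinase. Each of the 12 groups held 3 libraries of total RNA depleted of ribosomal RNA, 36 in all, from established lines rather than patients' cells. By the study's methods JVM2 and EHEB carry wild-type p53 and MEC1 mutated p53. Every line had its own exposure time, so line and time cannot be told apart. The library numbers of the DMSO and fludarabine samples form one series and those of the kinase inhibitor samples another without DMSO, so this numbering and the kinase inhibitors cannot be told apart either. The labels speak of triplicates and not of separate cultures, and p-values measure only the spread between these libraries.

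Entry into mitosis is driven by cyclin-dependent kinase 1 with cyclins A and B, after CDC25 phosphatases remove the phosphates that WEE1 places on it. Polo-like and Aurora kinases then build the spindle, condensins compact the chromosomes, and the spindle checkpoint holds back the anaphase-promoting complex until every kinetochore is attached. RNA of many of these genes, though not of all, rises in the G2 phase and is low in resting cells. Many of their promoters carry the cell cycle genes homology region (CHR) and CCAAT boxes. The CHR is bound by the MuvB complex, which represses together with RBL2 and E2F4 and activates together with MYBL2 and FOXM1. In a bulk sample, fewer cells in G2 or mitosis and less of these RNAs per cell cannot be told apart.

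The letters of these elements are shown for a few members around which the results turn: CCNA2, PLK1 and DLGAP5, called lower with every drug in every line, CDC20, among the deepest falls, and CCNB1 and CDC25A, which moved in opposite directions in different lines. Each stretch runs 5′ to 3′ from 120 bases before to 50 bases after the RefSeq start in GRCh38.p14, and capitals mark TTTGAA (CHR) and CCAAT or their reverse complements. In these stretches CCNA2, CCNB1 and CDC25A held no TTTGAA. No other form of the CHR was searched, so a promoter without TTTGAA is not shown to lack a CHR. UBE2C was also lower in all 9 comparisons.
CCNA2, chr4:121823834-121824003, minus strand: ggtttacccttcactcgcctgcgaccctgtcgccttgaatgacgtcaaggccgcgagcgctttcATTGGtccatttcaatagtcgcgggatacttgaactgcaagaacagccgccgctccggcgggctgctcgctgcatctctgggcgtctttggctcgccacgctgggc
PLK1, chr16:23678769-23678938, plus strand: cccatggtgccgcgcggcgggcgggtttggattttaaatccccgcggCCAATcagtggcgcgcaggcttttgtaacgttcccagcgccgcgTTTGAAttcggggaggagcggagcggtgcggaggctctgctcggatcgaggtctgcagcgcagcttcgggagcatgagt
DLGAP5, chr14:55191536-55191705, minus strand: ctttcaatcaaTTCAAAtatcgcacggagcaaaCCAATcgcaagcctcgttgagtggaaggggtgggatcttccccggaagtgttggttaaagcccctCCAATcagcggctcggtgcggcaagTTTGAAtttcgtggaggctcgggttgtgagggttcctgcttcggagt
CDC20, chr1:43358861-43359030, plus strand: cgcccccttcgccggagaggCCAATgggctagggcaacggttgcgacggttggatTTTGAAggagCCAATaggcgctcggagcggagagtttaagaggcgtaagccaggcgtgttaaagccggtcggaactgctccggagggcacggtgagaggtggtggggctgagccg
CCNB1, chr5:69167030-69167199, plus strand: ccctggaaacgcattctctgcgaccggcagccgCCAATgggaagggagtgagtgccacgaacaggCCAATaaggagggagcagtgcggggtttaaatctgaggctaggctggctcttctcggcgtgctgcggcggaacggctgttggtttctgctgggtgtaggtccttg
CDC25A, chr3:48188368-48188537, minus strand: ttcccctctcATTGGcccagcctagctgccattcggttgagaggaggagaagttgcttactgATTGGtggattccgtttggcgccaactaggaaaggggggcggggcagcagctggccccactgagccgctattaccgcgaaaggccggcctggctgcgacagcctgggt
Promoters of 46 of the 54 members were found in the RefSeq table, the first listed start being used where a gene had several. In the 300 bases from 250 before to 50 after the start, TTTGAA on either strand was present in 31 of the 46 (67.4%), against 15.4% of the 27305 promoters in the table. CCAAT was present in 32 (69.6%), against 35.7% of all, and both in 23, against 6.08% of all. The 2 motifs can share 1 letter where one directly follows the other, and such matches were counted for both. These are matches of letters and not binding sites. As a description, the median log2 fold changes against DMSO of the 31 members with TTTGAA were set beside those of the 15 without, and the order went either way. With fludarabine they were -0.08 and -0.04 in MEC1, -3.00 and -2.76 in JVM2 and -0.38 and -0.24 in EHEB. With ibrutinib they were -0.42 and -0.50, -0.68 and -0.95, and -0.39 and -0.44, and with idelalisib -0.45 and -0.51, -2.18 and -2.11, and -1.66 and -1.38. The median was lower with the motif in 5 of the 9 comparisons and higher in 4. For CCAAT the median of the 32 members with it was below that of the 14 without in 9 of 9, and comparisons within a line share their DMSO libraries.

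All libraries carried B cell markers, as MS4A1, CD79A, CD79B, PAX5 and CD22 were above 0 in all 36. Markers of other cell types were low but not absent. Of the 4 T cell genes, CD3D and CD3G were at 0 in 34 libraries and reached at most 0.219 CPM (counts scaled to a common library total), while CD3E reached 5.16 and CD2 12 CPM. Of the 4 myeloid genes, LYZ and MPO were at 0 in 33 libraries and CD14 in 26, and CSF1R, above 0 in all 36, reached 6.66 CPM. Of the 3 epithelial genes EPCAM reached 2.04, KRT8 17.6 and KRT18 22.7 CPM. Of the 3 fibroblast genes DCN was at 0 in 36 libraries and COL1A2 in 33, and COL1A1 ran from 0.7 to 24.7 CPM and made up nearly all of the sum. These sums moved with the groups. The 5 B cell markers together were lower after fludarabine in JVM2 (665 to 691 CPM, against 1080 to 1120 with DMSO) and in EHEB (868 to 948 against 1430 to 1480). They were higher in MEC1 with ibrutinib (1460 to 1640) and idelalisib (1310 to 1390) than with DMSO (876 to 956), and in JVM2 with ibrutinib (1250 to 1270) and idelalisib (1260 to 1290). The fibroblast sum was higher in JVM2 with ibrutinib (14.5 to 17.1 CPM) and idelalisib (19.5 to 24.7) than with DMSO (4.14 to 4.98) and lower with fludarabine (1.5 to 1.66). In EHEB it was 6.56 to 9.24 with ibrutinib and 10.6 to 13.5 with idelalisib, against 0.7 to 1.38 with DMSO. In MEC1 it was 11.7 to 13.2 with fludarabine and 4.87 to 6.31 with ibrutinib, against 1.34 to 3.05. The T cell sum in MEC1 was 2.71 to 4.15 CPM with fludarabine against 0.416 to 0.674 with DMSO, and in EHEB 12 to 15.6 with fludarabine, 5.09 to 6.1 with ibrutinib and 3.4 to 6.22 with idelalisib against 9.19 to 11.7. The myeloid sum in MEC1 was 5.04 to 6.86 with fludarabine against 0.431 to 0.878. The epithelial sum in JVM2 was 34 to 39.1 with DMSO and 23.9 to 29.1 over the 3 drugs, and in MEC1 2.89 to 3.21 with fludarabine against 1.02 to 1.87. The part of these shifts in the results was not tested. Total estimated counts ran from 26590705 to 53538925 per library, and the members' counts from 0 to 41691. Single libraries are named by line and number. CPM values below are scaled by TMM factors computed within each line.

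With DMSO alone, the members stood highest in MEC1. Per kilobase of the gene's merged exons, 53 of the 54 had a higher mean CPM in MEC1 than in JVM2, with a median ratio of 2.05, and all 54 were higher in MEC1 than in EHEB, with a median ratio of 4.13. These ratios compare levels scaled separately in each line. TOP2A, the topoisomerase that untangles sister chromatids, stood at 107 ± 3.73 CPM per kilobase in MEC1 (SD, n = 3), 63.0 ± 1.56 in JVM2 and 27.2 ± 0.773 in EHEB, and ranked first of the members in JVM2 and EHEB. MYBL2, a transcription factor of the G2 programme, ranked first in MEC1 at 151 ± 5.27 CPM per kilobase. Between the 3 libraries of a group the members were close, with a median ratio of highest to lowest of 1.14 over 648 members and groups. The ratio reached 2 or more, or the lowest library was at 0, in 14 of these, which fell on 7 members (CDC25C, CENPA, SPC25, BIRC5, CKAP2, FOXM1 and MKI67).

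The map of all 54 genes in all 36 libraries shows 3 broad falls. They lie in JVM2 with fludarabine and with idelalisib, and in EHEB with idelalisib.

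**Figure D1:**
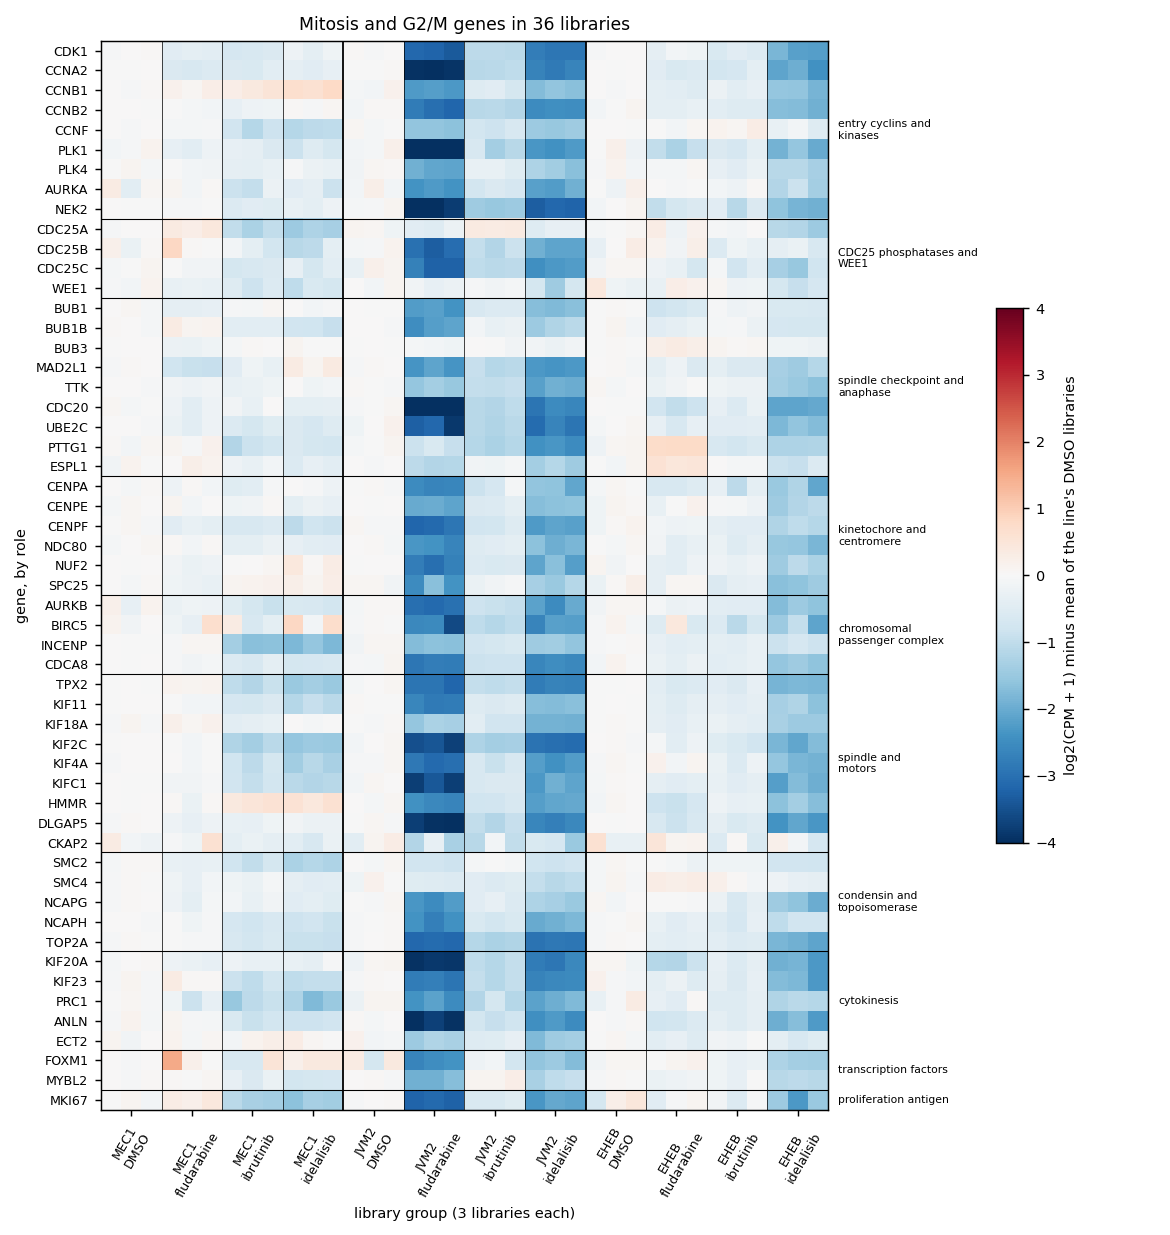
Each row is a gene, grouped by role, and each column a library. Colour gives log2(CPM + 1) minus the mean of the DMSO libraries of the same line, from -4 (blue) to 4 (red). Values under -4 are drawn as -4. JVM2 with fludarabine and with idelalisib, and EHEB with idelalisib, are blue over nearly the whole list, while CCNB1 and HMMR are pale red in MEC1 with both kinase inhibitors.

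Summed over the 54 genes, MEC1 libraries held 8123 to 8273 CPM with DMSO, 7457 to 8087 with fludarabine, 5257 to 5828 with ibrutinib and 5182 to 5301 with idelalisib. In JVM2 the sums were 3420 to 3657, 769.5 to 840.6, 2088 to 2129 and 920.7 to 935.7 in the same order. EHEB libraries held 1972 to 2101, 1768 to 1842, 1584 to 1708 and 864.6 to 951.5. In each line every drug group lay below its DMSO group on this scale. For fludarabine in MEC1 the direction turned without TMM: the members took 0.849 to 0.933% of all counts with fludarabine and 0.772 to 0.809% with DMSO.

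In MEC1 few of the mitotic genes were called with fludarabine, and both kinase inhibitors lowered a majority of them. A gene is called changed here when its edgeR quasi-likelihood p, adjusted over all genes tested by the Benjamini-Hochberg method, is under 0.05. With fludarabine 15 of the 54 were lower and 3 higher, and 36 were not called. Of the 17516 genes tested in MEC1, 22.7% were called lower and 21.2% higher, so the members' share of lower calls (27.8%) was a little above that of all genes and their share of higher calls (5.56%) below it. The members' median log2 fold change was -0.08 and that of all genes 0.06. This split turned with the scaling. By library size alone 17 members were higher and 3 lower, as were 6052 and 2113 of the 17516 genes tested. The members' median was then 0.17 and the median of all genes moved up by 0.25. Without the DMSO library MEC1_39 the lower calls numbered 9, and without any of the DMSO libraries MEC1_37 and MEC1_39 or the fludarabine libraries MEC1_46 and MEC1_48 the higher calls numbered 1.

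By role, fludarabine in MEC1 lowered 5 of 9 spindle checkpoint and anaphase genes, 3 of 9 entry cyclins and kinases and 3 of 5 condensin and topoisomerase genes. Of all genes 22.7% were called lower, and the roles hold few genes, so these counts set no role apart. MAD2L1, the checkpoint protein that binds CDC20, had in MEC1 134.9, 142.6 and 139.7 CPM with DMSO, 79.4, 74.9 and 73.7 with fludarabine, 100.5, 124 and 114 with ibrutinib and 174, 149 and 177 with idelalisib. Every fludarabine library lay below every DMSO library, and the log2 fold change of -0.87 (SE 0.09, adjusted p = 1.24e-05) was the deepest called fall of this comparison. CCNA2, cyclin A2, which acts in S phase and at mitotic entry, had 303, 302 and 306 CPM with DMSO, 204, 196 and 208 with fludarabine, 205, 199.8 and 228 with ibrutinib and 235, 221 and 239.4 with idelalisib. All drug libraries were below all DMSO libraries, with a log2 fold change of -0.58 (SE 0.06, adjusted p = 1.5e-05) for fludarabine. CDK1, the central mitotic kinase, had 195, 203 and 208 CPM with DMSO, 148, 153 and 151 with fludarabine, 125, 128 and 134.7 with ibrutinib and 176, 155 and 180.4 with idelalisib, and its fludarabine change was -0.42 (SE 0.06, adjusted p = 0.000285). The CDK1 groups with and without fludarabine did not overlap. MAD2L1, CCNA2 and CDK1 were also the only members that library size scaling alone called lower. BUB3, a checkpoint protein, had 239.9, 246 and 243 CPM with DMSO, 206, 200 and 215 with fludarabine, 231, 248.7 and 245 with ibrutinib and 264, 238.7 and 238.9 with idelalisib. SMC4, a condensin ATPase, had 274, 292 and 277 CPM with DMSO, 252, 222 and 258 with fludarabine, 249.6, 234.1 and 265 with ibrutinib and 221, 206 and 211 with idelalisib. Both fell slightly, at log2 fold changes of -0.23 (SE 0.06, adjusted p = 0.00603) and -0.20 (SE 0.07, adjusted p = 0.0326). The SMC4 call was lost without any of the DMSO libraries MEC1_37, MEC1_38 and MEC1_39, fludarabine library MEC1_47 or idelalisib library MEC1_192 (adjusted p from 0.0504 to 0.117).

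CDC25A, MKI67 and BUB1B rose with fludarabine in MEC1. CDC25A, a phosphatase that activates cyclin-dependent kinases, had 87.4, 90.6 and 90.5 CPM with DMSO, 115, 109 and 119.9 with fludarabine, 45.1, 36.97 and 45.2 with ibrutinib and 32.04, 37.5 and 35.2 with idelalisib. It lay above DMSO in every fludarabine library, by 0.36 log2 units (SE 0.09, adjusted p = 0.00584), and below DMSO in every kinase inhibitor library. MKI67, the proliferation antigen that coats mitotic chromosomes, had 839, 919 and 789 CPM with DMSO, 1052, 965 and 1124 with fludarabine, 405, 343 and 330.1 with ibrutinib and 268, 335 and 326 with idelalisib. The fludarabine libraries were again the highest, by 0.30 log2 units (SE 0.10, adjusted p = 0.0358). BUB1B, a checkpoint kinase-like protein, had 93.1, 92.7 and 86.8 CPM with DMSO, 113, 97.6 and 101 with fludarabine, 67.8, 67.7 and 67.8 with ibrutinib and 52.9, 51.7 and 47.7 with idelalisib and a change of 0.19 (SE 0.07, adjusted p = 0.0358). The MKI67 call was lost without any of the DMSO libraries MEC1_37 and MEC1_39 or fludarabine libraries MEC1_46 and MEC1_48 (adjusted p from 0.0831 to 0.13), and the BUB1B call in 8 of the 12 fits that left a library out, among them those without DMSO library MEC1_39 and without fludarabine library MEC1_46 (adjusted p = 0.136 and 0.163).

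Ibrutinib lowered 38 of the 54 genes in MEC1 and raised 2, against 23.9% of all genes called lower and 23.7% called higher. Idelalisib also lowered 38 and raised 5, against 27.4% and 27.6% of all genes. The members' median log2 fold changes were -0.43 and -0.49, and those of all genes 0.06 and 0.08. The 2 drugs were compared with the same DMSO libraries. All 4 CDC25 and WEE1 genes fell with idelalisib and 3 of them with ibrutinib. Of the 9 spindle and motor genes, 7 fell with ibrutinib and 6 with idelalisib. INCENP, the scaffold of the chromosomal passenger complex, had 156, 149.7 and 152 CPM with DMSO, 149, 161 and 160.4 with fludarabine, 59.01, 47.2 and 48.4 with ibrutinib and 43.5, 51.1 and 43.4 with idelalisib. Its log2 fold change was -1.56 (SE 0.09, adjusted p = 3.31e-07) with ibrutinib and -1.73 (SE 0.09, adjusted p = 1.01e-07) with idelalisib, the deepest called fall with either. KIF2C, a kinesin that depolymerises microtubules, had 193, 198 and 197 CPM with DMSO, 193, 182 and 193 with fludarabine, 84.97, 75.1 and 91.7 with ibrutinib and 67.1, 71.5 and 70.04 with idelalisib. Its level was 2.33-fold lower with ibrutinib and 2.82-fold lower with idelalisib. MKI67 was 2.36-fold and 2.74-fold lower, with no overlap with DMSO. PRC1, which bundles the midzone microtubules, had 129, 136 and 126 CPM with DMSO, 114, 70.95 and 104 with fludarabine, 44.5, 62.01 and 69.8 with ibrutinib and 54.2, 37.2 and 45.8 with idelalisib. Its fall reached -1.51 (SE 0.20, adjusted p = 7.18e-05) with idelalisib.

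A few members went up with the kinase inhibitors in MEC1. CCNB1, cyclin B1, the partner of CDK1 at mitotic entry, had 77.6, 74.7 and 79.5 CPM with DMSO, 87.3, 82.02 and 92.2 with fludarabine, 92.8, 102 and 110.4 with ibrutinib and 123, 119 and 136 with idelalisib. It rose by 0.40 log2 units (SE 0.08, adjusted p = 0.00139) with ibrutinib and by 0.70 log2 units (SE 0.08, adjusted p = 1.58e-05) with idelalisib, and every treated library lay above every DMSO library. HMMR, a spindle-associated hyaluronan receptor, had 95.7, 92.1 and 94.5 CPM with DMSO, 97.2, 78.3 and 96.97 with fludarabine, 123, 132 and 142.4 with ibrutinib and 142.3, 127 and 145 with idelalisib. It rose by 0.49 log2 units (SE 0.09, adjusted p = 0.000918) and 0.56 (SE 0.09, adjusted p = 0.000301). NUF2, of the NDC80 complex that holds microtubules at the kinetochore, had 43.5, 43.04 and 43.7 CPM with DMSO, 39.2, 35.99 and 37.5 with fludarabine, 43.05, 43.6 and 46.2 with ibrutinib and 59.02, 45.03 and 53.4 with idelalisib. SPC25 of the same complex had 28.1, 26.4 and 29.1 CPM with DMSO, 24.6, 23.3 and 22.7 with fludarabine, 29.8, 30.9 and 31.2 with ibrutinib and 32.96, 29.99 and 33.6 with idelalisib. With idelalisib both were above DMSO in every library, by 0.27 log2 units (SE 0.09, adjusted p = 0.021) and 0.21 (SE 0.07, adjusted p = 0.0256). MAD2L1 was higher with idelalisib, by 0.26 log2 units (SE 0.09, adjusted p = 0.0219), and lower with ibrutinib, at a log2 fold change of -0.30 (SE 0.09, adjusted p = 0.0132). The idelalisib calls of MAD2L1, NUF2 and SPC25 depended on single libraries: NUF2 reached an adjusted p of 0.123 without idelalisib library MEC1_190, SPC25 0.128 and MAD2L1 0.0917 without idelalisib library MEC1_192. The count of 5 members raised by idelalisib became 2 without DMSO library MEC1_37 or without idelalisib library MEC1_190 or MEC1_192, and 3 without DMSO library MEC1_38 or MEC1_39 or ibrutinib library MEC1_184.

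Set directly against each other in MEC1, at doses that differ, idelalisib and ibrutinib differed for a minority of members: 12 were lower with idelalisib and 6 higher, against 9.37% and 6.01% of all genes, and 36 were not called. The median difference was -0.08 on the log2 scale. MAD2L1 was higher with idelalisib than with ibrutinib, by 0.56 log2 units (SE 0.09, adjusted p = 0.00229), and so was CDK1, by 0.40 log2 units (SE 0.06, adjusted p = 0.00287). KIF18A, a motor that damps chromosome movements, had 67.3, 74.4 and 67.01 CPM with DMSO, 80.7, 73.7 and 78.2 with fludarabine, 51.5, 53.96 and 56.7 with ibrutinib and 70.3, 65.1 and 69.4 with idelalisib and was higher by 0.34 log2 units (SE 0.07, adjusted p = 0.00725). The 2 inhibitor groups did not overlap for KIF18A. TPX2, a spindle assembly factor that activates Aurora A, had 344, 352 and 343 CPM with DMSO, 384, 371 and 383 with fludarabine, 169, 154 and 187 with ibrutinib and 122, 133.9 and 124 with idelalisib. It was lower with idelalisib at a log2 fold change of -0.43 (SE 0.07, adjusted p = 0.00294), as was KIF4A, a chromosome-bound kinesin, at a log2 fold change of -0.43 (SE 0.09, adjusted p = 0.0115), from 45.5, 38.4 and 48.4 to 29.8, 36.3 and 32.3 CPM. BUB1B differed at a log2 fold change of -0.42 (SE 0.07, adjusted p = 0.00312). The count of 12 became 7 without ibrutinib library MEC1_186 and 6 without idelalisib library MEC1_190, and that of 6 became 2 without ibrutinib library MEC1_184 and 3 without idelalisib library MEC1_190 or MEC1_192. Library size scaling alone gave 23 lower and 2 higher, with 3852 and 493 of the 17516 genes tested called in these directions. The fit of only the 6 libraries gave 4 members lower and 3 higher.

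Fludarabine left MEC1 with more of the members' RNA than either kinase inhibitor did. Against ibrutinib 34 members were higher and 7 lower, with 26% and 25.4% of all genes called in these directions. Against idelalisib 35 were higher and 9 lower, with 29.3% and 26.9% of all genes. By library size alone the higher calls were 39 and 44 and the lower 4 and 3, and 9 members changed sign against idelalisib, among them CDK1 (0.17) and CCNA2 (0.15), called lower with TMM and higher without it. Of the 17516 genes tested, library size scaling called 5691 higher and 3242 lower against ibrutinib, and 7352 and 2841 against idelalisib. With TMM the members' medians were 0.39 and 0.42, and every CDC25 and WEE1 gene was higher with fludarabine in both comparisons. INCENP, MKI67 and CDC25A led the rises, with log2 differences of 1.60, 1.54 and 1.43 over ibrutinib and 1.77, 1.76 and 1.72 over idelalisib. MAD2L1, HMMR, SPC25 and CCNB1 were lower with fludarabine than with either inhibitor. By library size alone the call was lost for CCNB1 against ibrutinib (adjusted p = 0.607) and for SPC25 against idelalisib (adjusted p = 0.206). MAD2L1 stood at a log2 fold change of -0.57 (SE 0.09, adjusted p = 0.000184) against ibrutinib and -1.13 (SE 0.09, adjusted p = 6.52e-07) against idelalisib.

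In JVM2 nearly the whole mitotic programme fell, most deeply with fludarabine. Fludarabine lowered 51 of the 54 genes and raised none, against 23.3% of all 17508 genes tested called lower and 23.9% called higher. At an unadjusted p under 0.05, 53 were lower and 0 higher, and DESeq2 called 51 and 0. The median log2 fold change was -2.84, and that of all genes 0.06. All 9 entry cyclins and kinases, all 6 kinetochore and centromere genes, all 4 chromosomal passenger genes, all 5 condensin and topoisomerase genes, all 5 cytokinesis genes, FOXM1 and MYBL2, and MKI67 were lower. WEE1, BUB3 and CKAP2 were not called. The spread of the changes is shown in the plot of log2 fold changes by line and drug.

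**Figure D2:**
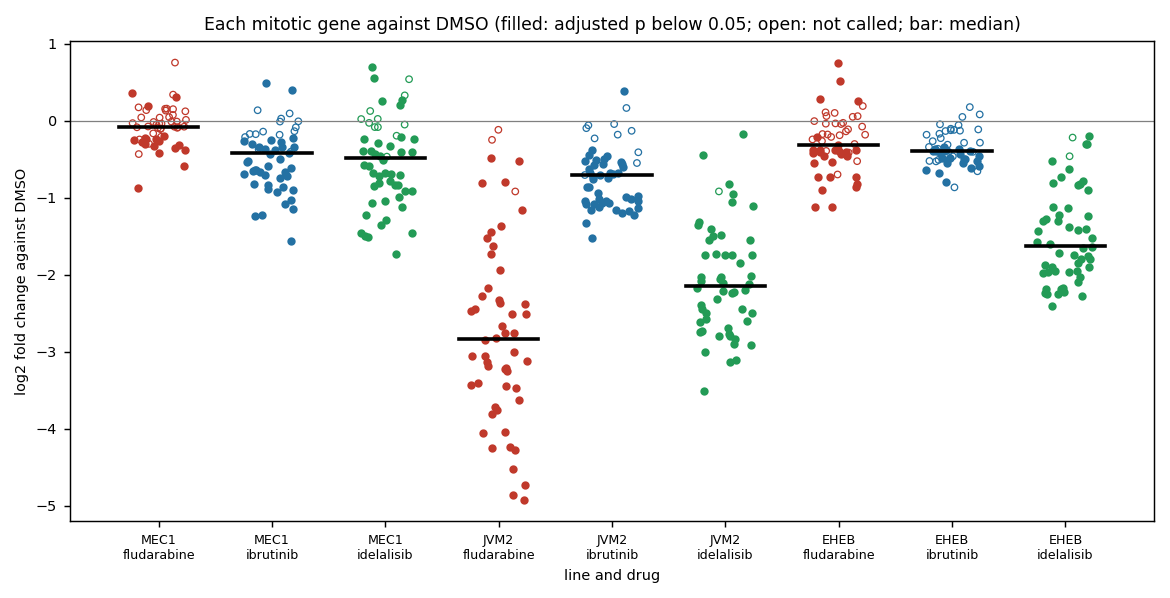
Each point is a gene, with its log2 fold change against DMSO on the vertical axis and the line and drug on the horizontal axis. Filled points passed an adjusted p of 0.05, and bars are medians. JVM2 with fludarabine is centred at -2.84 and reaches -4.92, while MEC1 with fludarabine is centred at -0.08.

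PLK1, the polo-like kinase that matures centrosomes and starts mitosis, had in JVM2 52.3, 53.6 and 65.9 CPM with DMSO, 1.64, 2.34 and 1.67 with fludarabine, 35.8, 21.5 and 25.97 with ibrutinib and 10.6, 9.83 and 11.1 with idelalisib. The 4 groups did not overlap, with fludarabine lowest, and the fall with fludarabine was -4.92 (SE 0.22, adjusted p = 2.15e-08), or 30.3-fold. CDC20, the activator of the anaphase-promoting complex, had 48.7, 49.6 and 53.5 CPM with DMSO, 1.54, 1.54 and 2.12 with fludarabine, 22.6, 22.1 and 24.4 with ibrutinib and 5.79, 7.99 and 7.47 with idelalisib. It followed the same order, 29.2-fold lower with fludarabine (adjusted p = 1.86e-09). ANLN, anillin of the contractile ring, had 33.4, 30.4 and 32.5 CPM with DMSO, 1.01, 1.48 and 1.14 with fludarabine, 18.9, 16.3 and 17.9 with ibrutinib and 5.10, 5.84 and 4.83 with idelalisib. It was 26.5-fold lower with fludarabine, again with no overlap between groups. CCNA2 had 92.5, 93.98 and 96.5 CPM with DMSO, 5.13, 4.58 and 5.30 with fludarabine, 43.3, 44.4 and 46.2 with ibrutinib and 14, 12.5 and 14.2 with idelalisib. DLGAP5, which stabilises spindle microtubules, had 64.6, 68.9 and 64.2 CPM with DMSO, 3.87, 3.32 and 3.16 with fludarabine, 32.98, 28.6 and 34.5 with ibrutinib and 10.04, 9.13 and 10.3 with idelalisib. Their log2 fold changes with fludarabine were -4.24 (SE 0.08, adjusted p = 6.6e-11) and -4.25 (SE 0.10, adjusted p = 3.01e-10). MKI67 had 239.1, 249.9 and 258 CPM with DMSO, 26.3, 28.2 and 25.5 with fludarabine, 164, 163 and 178 with ibrutinib and 48.7, 59.7 and 56.6 with idelalisib, a log2 fold change of -3.22 (SE 0.08, adjusted p = 3.4e-10) with fludarabine. BUB1B had 27.6, 27.8 and 26.2 CPM with DMSO, 4.05, 5.10 and 5.53 with fludarabine, 24.96, 21.9 and 22.8 with ibrutinib and 9.19, 11.3 and 12.2 with idelalisib, a log2 fold change of -2.47 (SE 0.13, adjusted p = 8.03e-08).

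Some members held more of their RNA under fludarabine in JVM2. PTTG1, securin, the inhibitor of separase, had 79.9, 84.7 and 90.95 CPM with DMSO, 46.4, 54.96 and 44.1 with fludarabine, 38.4, 34.8 and 37.7 with ibrutinib and 15.1, 16.3 and 13.9 with idelalisib. It fell with fludarabine, at a log2 fold change of -0.81 (SE 0.09, adjusted p = 3.07e-05), yet lay above both kinase inhibitor groups in every library. ESPL1, separase itself, had 39.05, 37.6 and 39.3 CPM with DMSO, 18.1, 16.6 and 17.04 with fludarabine, 35.1, 34.2 and 36.6 with ibrutinib and 14.3, 17.1 and 13.9 with idelalisib and fell at a log2 fold change of -1.16 (SE 0.08, adjusted p = 5.47e-07). WEE1 had 32.2, 29.2 and 34.1 CPM with DMSO, 28.5, 25.1 and 26.9 with fludarabine, 30.7, 28.5 and 30.1 with ibrutinib and 19.04, 11.3 and 18.9 with idelalisib, with a fludarabine change of -0.25 (SE 0.16, adjusted p = 0.237) that was not called. SMC4 had 133.4, 171 and 149 CPM with DMSO, 108, 105 and 102 with fludarabine, 111, 102 and 107 with ibrutinib and 76.6, 69.2 and 73.3 with idelalisib. CDC25A had 7.67, 7.32 and 5.997 CPM with DMSO, 4.84, 4.51 and 5.70 with fludarabine, 9.28, 9.04 and 9.21 with ibrutinib and 4.62, 5.31 and 5.39 with idelalisib. Their falls with fludarabine, -0.52 (SE 0.08, adjusted p = 0.00029) and -0.48 (SE 0.12, adjusted p = 0.00769), were among the smallest called. SPC25, in contrast to these members, fell deeply. It had 4.94, 5.00 and 4.09 CPM with DMSO, 0, 0.760 and 0.0697 with fludarabine, 3.72, 4.14 and 4.52 with ibrutinib and 1.27, 1.04 and 1.55 with idelalisib. One fludarabine library held none of it and another 0.0697 CPM, so its fold change there, -4.05 (SE 0.77, adjusted p = 0.00131), carries the largest SE of the members called in this comparison.

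Ibrutinib lowered 43 members in JVM2 and raised 1, against 15% and 14.5% of all genes. The median was -0.71, and that of all genes 0.00. All 9 entry cyclins and kinases, all 5 cytokinesis genes and all 4 chromosomal passenger genes fell. FOXM1 and MYBL2 were not called. NEK2, a kinase that separates centrosomes, had 41.7, 42.6 and 47.8 CPM with DMSO, 1.64, 1.84 and 2.23 with fludarabine, 15.7, 14.7 and 15.5 with ibrutinib and 3.61, 4.13 and 3.84 with idelalisib. It was the deepest called fall with ibrutinib, -1.52 (SE 0.10, adjusted p = 4.04e-06), and with idelalisib, -3.51 (SE 0.11, adjusted p = 7.45e-09). KIF2C had 79.1, 87.6 and 91.2 CPM with DMSO, 6.63, 7.03 and 5.46 with fludarabine, 35.7, 32.9 and 33.8 with ibrutinib and 10.2, 9.85 and 9.27 with idelalisib. TOP2A had 391, 403 and 411 CPM with DMSO, 45.04, 46.9 and 45.1 with fludarabine, 180, 166 and 172 with ibrutinib and 51.5, 54.4 and 53.6 with idelalisib. Ibrutinib lowered them 2.52-fold and 2.33-fold, and no ibrutinib library reached a DMSO library. CDC25A alone rose, by 0.39 log2 units (SE 0.12, adjusted p = 0.0321). Its call was lost without DMSO library JVM2_86 or JVM2_87 or without any of the ibrutinib libraries JVM2_232, JVM2_233 and JVM2_234 (adjusted p from 0.0577 to 0.122), which leaves no member raised.

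Idelalisib lowered 53 of the 54 members in JVM2 and raised none, against 22.6% and 21.6% of all genes. At an unadjusted p under 0.05, 54 were lower and 0 higher, and DESeq2 called 53 and 0. The median was -2.15, and that of all genes 0.03. CKAP2, a microtubule-associated protein, was the exception. It had 58.6, 84.8 and 97.3 CPM with DMSO, 34.1, 61.95 and 31.3 with fludarabine, 35.7, 72.7 and 39.5 with ibrutinib and 51, 48.9 and 27.6 with idelalisib. Its idelalisib libraries lay below its DMSO libraries but spread widely, the change of -0.92 (SE 0.36, adjusted p = 0.0582) was not called, and neither was any other comparison with DMSO. UBE2C, the ubiquitin-conjugating enzyme of the anaphase-promoting complex, had 39.9, 46.02 and 50.9 CPM with DMSO, 3.85, 4.30 and 2.21 with fludarabine, 20.5, 19.2 and 21.1 with ibrutinib and 4.44, 6.40 and 5.08 with idelalisib. It was 8.59-fold lower with idelalisib. CCNB1 had 51.3, 50.4 and 61.5 CPM with DMSO, 10.4, 11.1 and 10.2 with fludarabine, 37.5, 39.7 and 33.2 with ibrutinib and 15.7, 17.3 and 16.3 with idelalisib. HMMR had 57.6, 54.4 and 60.1 CPM with DMSO, 9.85, 8.81 and 8.32 with fludarabine, 32.7, 33.01 and 36.1 with ibrutinib and 11.7, 12.7 and 13.1 with idelalisib. MAD2L1 had 50.2, 54.6 and 52.5 CPM with DMSO, 9.36, 11.4 and 9.41 with fludarabine, 27.2, 23.2 and 24.5 with ibrutinib and 9.77, 9.32 and 9.78 with idelalisib. All 3 fell with idelalisib, at log2 fold changes of -1.73, -2.20 and -2.44. NUF2 had 14.02, 14.3 and 14.2 CPM with DMSO, 1.23, 0.868 and 1.35 with fludarabine, 9.35, 9.01 and 9.26 with ibrutinib and 2.52, 3.72 and 2.29 with idelalisib, a change of -2.32 (SE 0.18, adjusted p = 2.93e-06) with idelalisib. BUB3 had 111, 115 and 113 CPM with DMSO, 106, 105 and 101 with fludarabine, 114, 112 and 103 with ibrutinib and 102, 96.7 and 103 with idelalisib, with a log2 fold change of -0.17 (SE 0.05, adjusted p = 0.0169) that was lost without DMSO library JVM2_86 or idelalisib library JVM2_239 (adjusted p = 0.0545 and 0.0906). The SPC25 call was lost when any 1 of the 9 DMSO, ibrutinib or idelalisib libraries was left out (adjusted p from 0.0587 to 0.119).

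Idelalisib took the members further down than ibrutinib in JVM2 at the doses used. Of the 54, 51 were lower and none higher, against 10.5% and 8.21% of all genes. At an unadjusted p under 0.05, 53 were lower and 0 higher, and DESeq2 called 51 and 0. The median difference was -1.42. NEK2, UBE2C and CDK1 differed most, at log2 fold changes of -1.99 (SE 0.11, adjusted p = 8.88e-07), -1.93 (SE 0.21, adjusted p = 0.000131) and -1.91 (SE 0.07, adjusted p = 1.75e-07). CDK1 had 62.6, 58.6 and 61.05 CPM with DMSO, 6.02, 5.67 and 5.04 with fludarabine, 28.9, 28.6 and 28.3 with ibrutinib and 8.10, 7.41 and 7.26 with idelalisib. Its 4 groups stood apart from one another. Fludarabine lay lower still: 49 members were lower and 1 higher than with ibrutinib (21.7% and 20.9% of all genes), and 38 lower and 5 higher than with idelalisib (20.7% and 20.4%). The medians were -2.09 and -0.63. PLK1, ANLN and SPC25 led the falls, at log2 fold changes of -3.88, -3.87 and -3.87 against ibrutinib and -2.48, -2.12 and -2.19 against idelalisib. PTTG1 was higher with fludarabine than with ibrutinib, by 0.39 log2 units (SE 0.09, adjusted p = 0.0055), and than with idelalisib, by 1.68 log2 units (SE 0.10, adjusted p = 1.31e-07). WEE1, TTK, KIF18A and SMC4 were also higher with fludarabine than with idelalisib. TTK, the checkpoint kinase at the head of the pathway, had 50.9, 48.8 and 47.7 CPM with DMSO, 16.2, 18.6 and 16.7 with fludarabine, 24.8, 24.2 and 25.6 with ibrutinib and 10.1, 12.2 and 11.7 with idelalisib. Its difference was 0.60 (SE 0.08, adjusted p = 0.000123).

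In EHEB idelalisib lowered almost every member, and fludarabine and ibrutinib lowered fewer, by smaller steps. With fludarabine 24 were lower and 4 higher, against 19.2% and 18.4% of all 17748 genes tested. The median was -0.31, and that of all genes 0.02. Of the 9 spindle and motor genes 6 were called lower, and none of the 6 kinetochore and centromere genes was called. Uncalled CENPA and NUF2 changed by -0.70 and -0.39, and KIF18A, a called spindle gene, by -0.39. The roles hold few genes, so these calls do not set the roles apart. KIF20A, a kinesin of the cytokinetic midzone, had in EHEB 20.9, 20.96 and 17.5 CPM with DMSO, 8.45, 8.28 and 10.5 with fludarabine, 15.6, 13.1 and 15 with ibrutinib and 4.44, 4.76 and 3.24 with idelalisib. Fludarabine lay below both DMSO and ibrutinib in every library, with a log2 fold change of -1.12 (SE 0.15, adjusted p = 0.000138). PLK1 had 25.5, 30.2 and 22.6 CPM with DMSO, 12.5, 10.3 and 13.3 with fludarabine, 16.9, 15.8 and 19.3 with ibrutinib and 6.24, 8.14 and 5.66 with idelalisib. CDC20 had 28.5, 27.7 and 27.6 CPM with DMSO, 16.1, 13.7 and 15.3 with fludarabine, 21.9, 18.9 and 22.9 with ibrutinib and 5.78, 5.76 and 6.04 with idelalisib. Both fell with fludarabine, 2.17-fold and 1.86-fold, and further with idelalisib. BUB1B fell from 22.3, 24.7 and 20.8 to 16.3, 17.2 and 18.4 CPM (adjusted p = 0.0048).

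Securin and separase, which together time the release of sister chromatids, rose with fludarabine in EHEB. PTTG1 had 45.3, 55.2 and 56.2 CPM with DMSO, 86.2, 88.2 and 89.4 with fludarabine, 32.9, 31.02 and 34.02 with ibrutinib and 21.5, 21.6 and 21.8 with idelalisib. The fludarabine libraries were the highest and the kinase inhibitor libraries the lowest, with changes of 0.75 (SE 0.08, adjusted p = 2.07e-05) for fludarabine and -0.68 (SE 0.08, adjusted p = 0.00017) for ibrutinib. ESPL1 had 21.5, 19.99 and 23.7 CPM with DMSO, 32.6, 30.1 and 30.5 with fludarabine, 22.04, 20.7 and 20.4 with ibrutinib and 11.4, 11.02 and 14.6 with idelalisib. It rose by 0.51 log2 units (SE 0.11, adjusted p = 0.00295) with fludarabine. BUB3 had 116, 122 and 118 CPM with DMSO, 139, 148 and 139 with fludarabine, 128, 123 and 126 with ibrutinib and 104, 105 and 101 with idelalisib. SMC4 had 63.2, 71.5 and 64.9 CPM with DMSO, 82.4, 78.4 and 81.4 with fludarabine, 76.95, 68.1 and 61.5 with ibrutinib and 57.99, 52.2 and 51.4 with idelalisib. Both lay above DMSO in every fludarabine library, by 0.26 log2 units (SE 0.05, adjusted p = 0.000961) and 0.28 (SE 0.09, adjusted p = 0.0238). The SMC4 call was lost without DMSO library EHEB_133 or EHEB_135 or fludarabine library EHEB_142 or EHEB_144 (adjusted p from 0.0704 to 0.0936).

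Ibrutinib lowered 24 members in EHEB and raised none, against 11.2% and 8.5% of all genes. At an unadjusted p under 0.05, 38 were lower and 0 higher, and DESeq2 called 32 and 0. By library size scaling alone 1 was higher, with 2524 of the 17748 genes tested called higher. The median was -0.39, and that of all genes 0.01. Of the 9 entry cyclins and kinases 7 fell. NEK2 had 8.46, 9.43 and 10.1 CPM with DMSO, 4.21, 5.26 and 5.85 with fludarabine, 6.49, 3.75 and 5.88 with ibrutinib and 2.36, 1.85 and 1.72 with idelalisib. KIF2C had 27.9, 28.5 and 27.1 CPM with DMSO, 26.2, 20.6 and 23.8 with fludarabine, 19.8, 17.9 and 15.8 with ibrutinib and 7.08, 5.85 and 7.59 with idelalisib. With PTTG1 they were the deepest called falls, at -0.79 (SE 0.21, adjusted p = 0.0203) and -0.64 (SE 0.12, adjusted p = 0.00346). CCNB1 had 31.8, 30.7 and 32.1 CPM with DMSO, 23.7, 23.3 and 21.9 with fludarabine, 26.4, 23.5 and 24.9 with ibrutinib and 10.2, 9.97 and 7.97 with idelalisib, a log2 fold change of -0.34 (SE 0.09, adjusted p = 0.0244). The calls were thin: NEK2 was not called once EHEB_134 or EHEB_135 (DMSO) or EHEB_281 (ibrutinib) was left out (adjusted p from 0.058 to 0.0669), CCNB1 without any DMSO library (EHEB_133, EHEB_134 or EHEB_135) or ibrutinib library EHEB_281 or EHEB_282 (0.0565 to 0.0973), and the count of 24 became 16 without DMSO library EHEB_134.

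Idelalisib lowered 52 of the 54 members in EHEB and raised none, against 18.2% and 15.1% of all genes. At an unadjusted p under 0.05, 53 were lower and 0 higher, and DESeq2 called 53 and 0. The median was -1.62, and that of all genes 0.01. CDC25B and CKAP2 were not called. DLGAP5 had 40.01, 39.04 and 39.9 CPM with DMSO, 25.2, 21.3 and 24.9 with fludarabine, 30.98, 25.8 and 27.2 with ibrutinib and 6.69, 8.60 and 7.05 with idelalisib. CCNA2 had 36.9, 36.2 and 36.97 CPM with DMSO, 26.8, 23.5 and 24.99 with fludarabine, 21.8, 22.6 and 27.4 with ibrutinib and 7.79, 8.82 and 6.005 with idelalisib. The idelalisib libraries lay below all others, 5.31-fold and 4.85-fold under DMSO. UBE2C had 16.4, 17.98 and 18.4 CPM with DMSO, 13.8, 11.03 and 13.8 with fludarabine, 12.5, 12.6 and 12.8 with ibrutinib and 4.30, 5.22 and 4.58 with idelalisib, a log2 fold change of -1.90 (SE 0.11, adjusted p = 4.84e-07). MAD2L1 had 19.4, 19.9 and 18.1 CPM with DMSO, 14.4, 16.5 and 12.6 with fludarabine, 14.5, 12.4 and 12.5 with ibrutinib and 6.97, 6.55 and 8.07 with idelalisib. NUF2 had 6.85, 5.56 and 6.40 CPM with DMSO, 4.601, 4.46 and 5.27 with fludarabine, 5.26, 4.94 and 5.24 with ibrutinib and 1.73, 2.53 and 2.002 with idelalisib. HMMR had 26.4, 29.9 and 28.9 CPM with DMSO, 15.5, 14.98 and 17.5 with fludarabine, 24.7, 22.6 and 22.6 with ibrutinib and 8.46, 10.4 and 8.07 with idelalisib. Each was lowest with idelalisib, at log2 fold changes of -1.41, -1.58 and -1.66.

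Against ibrutinib, idelalisib lowered 51 members in EHEB and raised none, with 9.09% and 6.77% of all genes called in these directions. At an unadjusted p under 0.05, 51 were lower and 0 higher, and DESeq2 called 51 and 0. The median difference was -1.30. DLGAP5, CDC20 and KIF20A differed most, at log2 fold changes of -1.91 (SE 0.11, adjusted p = 2.74e-06), -1.86 (SE 0.09, adjusted p = 1.41e-06) and -1.81 (SE 0.16, adjusted p = 3.1e-05). Between fludarabine and ibrutinib fewer members differed, with 9 higher and 7 lower and a median of 0.08. These are 16.7% and 13% of the members, not above the 16.7% and 16.6% of all genes. PTTG1, ESPL1 and KIF4A were the largest called rises, by 1.43 log2 units (SE 0.08, adjusted p = 1.7e-07), 0.56 (SE 0.11, adjusted p = 0.0019) and 0.40 (SE 0.13, adjusted p = 0.0371). KIF20A, BUB1 and HMMR were the deepest called falls, at log2 fold changes of -0.68, -0.60 and -0.54. BUB1, the checkpoint kinase of the kinetochore, had 102, 106 and 101 CPM with DMSO, 57.4, 62.3 and 67.1 with fludarabine, 100, 88.9 and 94.2 with ibrutinib and 66.9, 66.9 and 66.4 with idelalisib. Every fludarabine library of BUB1 lay below every DMSO and every ibrutinib library. The count of 9 became 5 without fludarabine library EHEB_143, 4 without fludarabine library EHEB_144 and 3 without ibrutinib library EHEB_281. Fludarabine lay above idelalisib for 51 members and below for none (22.5% and 20.3% of all genes, with 51 and 0 at an unadjusted p under 0.05 and 51 and 0 by DESeq2), with a median of 1.31. SPC25, PTTG1 and KIF4A led these, with log2 differences of 2.12, 2.02 and 2.02. SPC25 had 4.53, 5.90 and 6.76 CPM with DMSO, 4.17, 6.10 and 6.01 with fludarabine, 3.505, 4.14 and 4.28 with ibrutinib and 1.09, 1.20 and 1.46 with idelalisib. KIF4A had 16.9, 18.8 and 17.2 CPM with DMSO, 19.8, 16.4 and 18.9 with fludarabine, 14.6, 11.8 and 15.3 with ibrutinib and 5.39, 4.21 and 4.04 with idelalisib. For both, every idelalisib library lay below every fludarabine library. The plot of idelalisib over ibrutinib shows the 3 lines side by side.

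**Figure D3:**
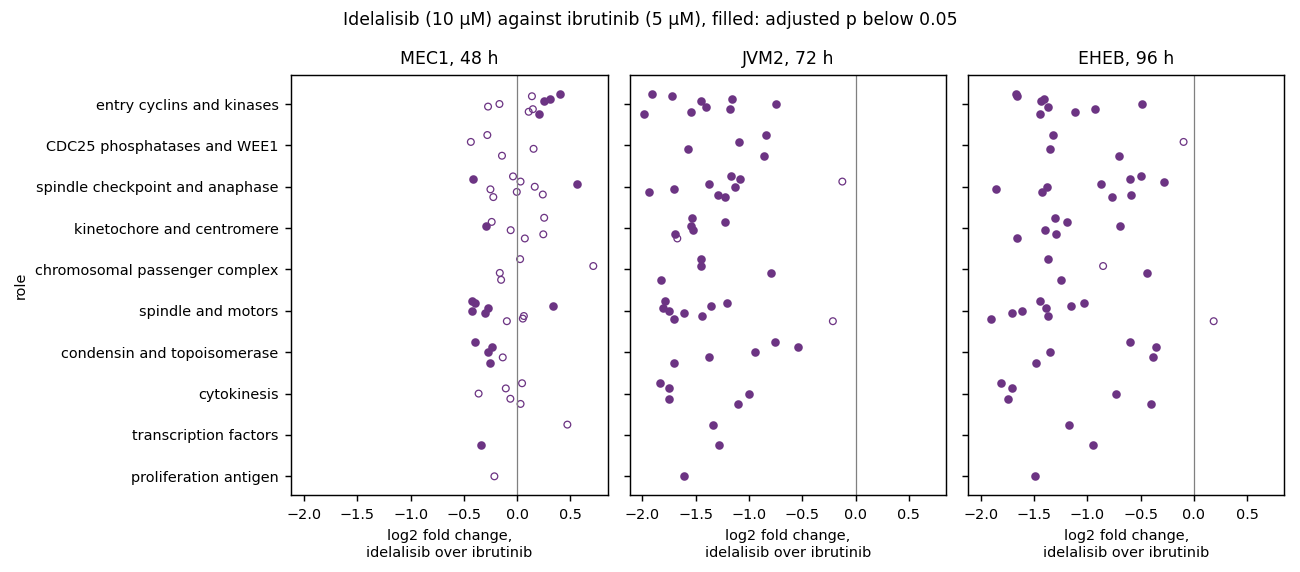
Each point is a gene, placed by role on the vertical axis and by its log2 fold change of idelalisib over ibrutinib on the horizontal axis, with filled points past an adjusted p of 0.05. The points of JVM2 and EHEB lie to the left, with medians of -1.42 and -1.30, and those of MEC1 lie around 0, with a median of -0.08.

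CCNA2, PLK1, UBE2C and DLGAP5 were lower in all 9 comparisons with DMSO, and a further 13 members in 8. By GENCODE 44 in GRCh38 they lie on chromosome 4 (CCNA2, 121816444 to 121823883, minus strand), chromosome 16 (PLK1, 23677656 to 23690367, plus strand), chromosome 20 (UBE2C, 45812576 to 45816957, plus strand) and chromosome 14 (DLGAP5, 55148112 to 55191608, minus strand). In MEC1 PLK1 had 77.1, 79.9 and 92.4 CPM with DMSO, 65.7, 62.1 and 71.6 with fludarabine, 66.3, 64.4 and 54.9 with ibrutinib and 44.9, 58.2 and 50.4 with idelalisib. UBE2C had 95.3, 94.7 and 90.4 CPM with DMSO, 77.4, 69.1 and 80.5 with fludarabine, 64.2, 56.6 and 65.9 with ibrutinib and 62.1, 58.9 and 65.3 with idelalisib. DLGAP5 had 172, 182 and 179 CPM with DMSO, 153, 141 and 154 with fludarabine, 144.3, 141.5 and 158 with ibrutinib and 159.9, 151 and 149.5 with idelalisib. Each was below DMSO in all 9 drug libraries of this line. The log2 fold changes of CCNA2 ran from -4.24 to -0.39 over the 9 comparisons, those of PLK1 from -4.92 to -0.32, those of UBE2C from -3.72 to -0.31 and those of DLGAP5 from -4.25 to -0.21. PLK1 was the least certain, with adjusted p = 0.0353 for fludarabine in MEC1. It was not called there without DMSO library MEC1_39, fludarabine library MEC1_46 or MEC1_47 or idelalisib library MEC1_192 (adjusted p from 0.0553 to 0.126), nor with ibrutinib in EHEB when EHEB_133 or EHEB_134 (DMSO) or EHEB_280 or EHEB_281 (ibrutinib) was left out (0.0574 to 0.103). By library size scaling alone 1 gene, CCNA2, was lower in all 9, with the stricter filter on low counts CCNA2 and UBE2C were, and DESeq2 added KIF20A. At the other end CKAP2 was called in none of the 9, and BUB3 and FOXM1 were lower in 3.

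**Figure D4:**
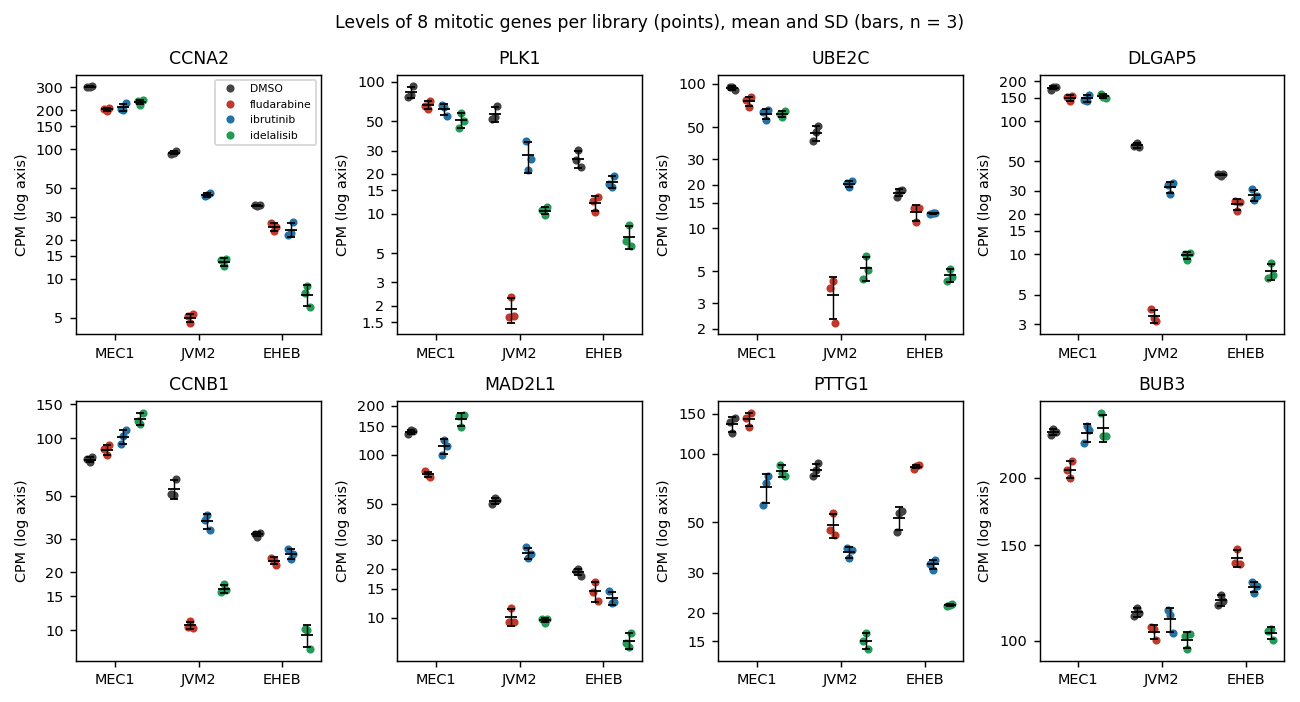
CPM of 8 genes on a log axis in each library (points), by line and treatment, with means and SD bars (n = 3). CCNA2, PLK1, UBE2C and DLGAP5 lie below DMSO in every drug group, CCNB1 rises from DMSO to idelalisib in MEC1 alone, and within EHEB PTTG1 is highest with fludarabine.

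The lines differed in how the members responded. The line by treatment interaction, tested in edgeR over the 18 libraries of DMSO and 1 drug, was called for 52 of the 54 members with fludarabine, 35 with ibrutinib and 50 with idelalisib, against 39.1%, 33.6% and 45.7% of all genes. Members called in opposite directions in different lines were CDC25A, BUB1B, BUB3, PTTG1, ESPL1, SMC4 and MKI67 with fludarabine, CCNB1, CDC25A and HMMR with ibrutinib, and CCNB1, MAD2L1, NUF2, SPC25 and HMMR with idelalisib. The share of all genes called in opposite directions was not counted, and the interaction tests any difference between lines. MKI67 changed with fludarabine by 0.30 in MEC1, -3.22 in JVM2 and -0.18 in EHEB, the last not called (interaction adjusted p = 3.44e-07). Its EHEB libraries varied widely, at 92.4, 177 and 205 CPM with DMSO. CCNB1 changed with idelalisib by 0.70, -1.73 and -1.75 in the same order (interaction adjusted p = 2.11e-09). PTTG1 changed with fludarabine by 0.08, not called, -0.81 and 0.75 (interaction adjusted p = 1.04e-06).

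The order of the members' changes was most alike between JVM2 and EHEB. Across the 54 genes, which are not independent replicates, Pearson's r between the JVM2 and EHEB log2 fold changes was 0.689 with fludarabine, 0.682 with ibrutinib and 0.76 with idelalisib (Spearman's rho 0.607, 0.704 and 0.781). Between MEC1 and JVM2 r was 0.186, 0.162 and -0.0218, and between MEC1 and EHEB 0.292, 0.148 and -0.0787. These lines share no library, and each line's changes share its DMSO libraries. Most members were lowered in JVM2, 51 of 54 with fludarabine, 43 with ibrutinib and 53 with idelalisib. The overlap of lower calls with that line was therefore high for both other lines, and does not set them apart. It was least complete for MEC1 with ibrutinib. It held 24 of the 24 lowered in EHEB and 14 of the 15 lowered in MEC1 with fludarabine, 24 of 24 and 32 of 38 with ibrutinib, and 52 of 52 and 38 of 38 with idelalisib.

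**Figure D5:**
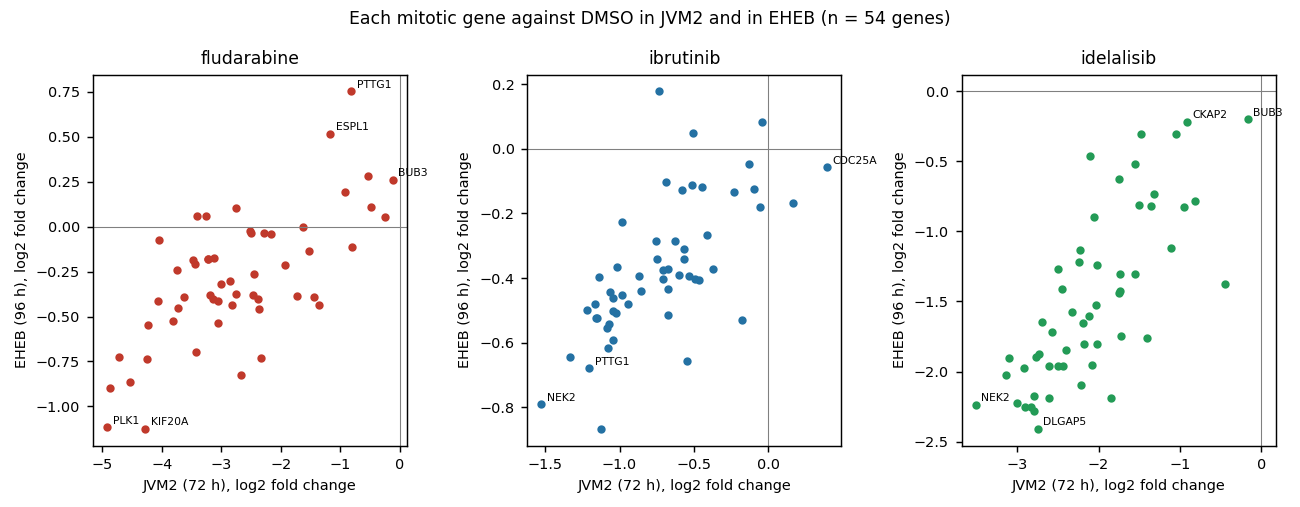
Each point is a gene, with its log2 fold change against DMSO in JVM2 on the horizontal axis and in EHEB on the vertical axis, for fludarabine, ibrutinib and idelalisib. The axes differ in range, and the points rise together, with Pearson's r of 0.689, 0.682 and 0.76 over 54 genes.

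Some members were set by single libraries. FOXM1, the transcription factor of G2 genes, had in MEC1 62, 59.1 and 61.9 CPM with DMSO, 178, 70.9 and 60.3 with fludarabine, 39.05, 38.4 and 88.5 with ibrutinib and 69.6, 80.3 and 79.9 with idelalisib. Fludarabine library MEC1_46 stood far above the other 2, and the change of 0.76 (SE 0.40, adjusted p = 0.147) was not called. In JVM2 its DMSO libraries held 51.3, 24.2 and 52.9 CPM, library JVM2_86 being low. FOXM1 fell in JVM2 with fludarabine, at a log2 fold change of -2.76 (SE 0.28, adjusted p = 1.39e-05), and with idelalisib, at a log2 fold change of -1.74 (SE 0.27, adjusted p = 0.00037). BIRC5, survivin of the chromosomal passenger complex, had in MEC1 32.2, 26.8 and 29.6 CPM with DMSO, 26.1, 23.3 and 47.1 with fludarabine, 37.5, 18.7 and 22.2 with ibrutinib and 52.6, 27.5 and 48.7 with idelalisib and was not called with any drug there. CDC25B, another entry phosphatase, had 143.8, 83.7 and 79.7 CPM with fludarabine in MEC1, library MEC1_46 again being the highest.

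A list of 93 other mitotic genes was counted beside the members. With fludarabine 19 (20.4%) were lower and 19 (20.4%) higher in MEC1, against 22.7% and 21.2% of all genes. In JVM2 75 (80.6%) were lower and 8 (8.6%) higher, against 23.3% and 23.9%, and in EHEB 20 (21.5%) and 11 (11.8%), against 19.2% and 18.4%. The lower shares in MEC1 and EHEB were thus near those of all genes. With ibrutinib 47 (50.5%), 49 (52.7%) and 17 (18.3%) were lower in MEC1, JVM2 and EHEB, against 23.9%, 15% and 11.2%, and 13, 6 and 2 higher. With idelalisib 44 (47.3%), 72 (77.4%) and 62 (66.7%) were lower, against 27.4%, 22.6% and 18.2%, and 17, 8 and 6 higher. Their median log2 fold changes with idelalisib were -0.20, -1.12 and -0.73, against -0.49, -2.15 and -1.62 for the members. Largest falls with fludarabine were PSRC1, a microtubule regulator, in MEC1 (-1.16) and EHEB (-2.17), CDC26 of the anaphase-promoting complex in MEC1 (-1.01), DEPDC1 in JVM2 (-4.81) and EHEB (-1.04) and HJURP, the chaperone that loads CENPA, in JVM2 (-4.26). With the kinase inhibitors they were CDCA5 (-1.36) and SKA1 (-1.27) for ibrutinib and ARHGAP11A (-1.69) and CKAP5 (-1.66) for idelalisib in MEC1, ARHGAP11A (-1.55) and DEPDC1 (-1.20) for ibrutinib and CKAP2L (-3.08) and HJURP (-2.88) for idelalisib in JVM2, and SPC24 (-1.11) and CENPW (-0.80) for ibrutinib and SKA1 (-2.41) and KIF18B (-2.26) for idelalisib in EHEB. PSRC1 stood low in EHEB, at 1.71, 2.44 and 2.22 CPM with DMSO and 0.678, 0.538 and 0.212 with fludarabine. DEPDC1 stood at 1.05, 0.608 and 0.418 CPM with fludarabine in JVM2. The rises named by the same rule were as follows. CDC16 rose with ibrutinib in MEC1 (1.01), JVM2 (0.50) and EHEB (0.37) and with idelalisib in JVM2 (0.80), ANAPC4 with ibrutinib in MEC1 (0.80), ANAPC16 with idelalisib in MEC1 (0.99), ANAPC5 in JVM2 with ibrutinib (0.52) and idelalisib (0.60), and ANAPC2 with fludarabine in JVM2 (0.77) and with ibrutinib in EHEB (0.33). The others were CENPO (1.52) and CENPT (0.81) with fludarabine in MEC1, CKS2, a CDK-binding protein, with idelalisib in MEC1 (1.06), MAD1L1, the partner of MAD2L1, with fludarabine in JVM2 (0.65) and EHEB (1.02), CENPT with fludarabine in EHEB (0.77), and CIT (1.05) and CENPC (0.39) with idelalisib in EHEB.

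Between drugs, CKS2 was higher with idelalisib than with ibrutinib in MEC1 (0.72), with CENPQ (0.59), and higher with fludarabine than with either inhibitor in JVM2 (0.63 and 1.74), with MAD1L1 (1.09 and 1.23). ARHGAP11A (-0.76) and CKAP5 (-0.50) were lower with idelalisib than ibrutinib in MEC1, CKAP2L (-2.26) and PBK (-2.04) in JVM2, and SKA1 (-1.85) and TRIP13 (-1.81) in EHEB, where CIT was higher (0.80), as CDC16 was in JVM2 (0.30). Fludarabine against ibrutinib was led by HASPIN (1.40) and KIF18B (1.36) above and ANAPC16 (-1.26) and ANAPC4 (-0.94) below in MEC1, by DEPDC1 (-3.61) and KIF18B (-3.24) below in JVM2, and by MAD1L1 (1.21) and SKA1 (0.97) above and PSRC1 (-1.78) and CIT (-0.64) below in EHEB. Against idelalisib the leaders were SPC24 (1.72) and KIF18B (1.72) above and ANAPC16 (-1.69) and CKS2 (-1.04) below in MEC1, PIMREG (-2.52) and DEPDC1 (-2.04) below in JVM2, and SKA1 (2.82) and TRIP13 (2.28) above and CIT (-1.44) and CEP192 (-0.61) below in EHEB. All of these passed the adjusted threshold, but the fits that left out a library were kept for the members only. PIMREG was low in JVM2, at 0.493, 0.304 and 0.395 CPM with fludarabine and 1.81, 2.75 and 2.29 with idelalisib. In MEC1 SPC24 spread widely with idelalisib (33.9, 63.3 and 13.5 CPM), as CENPO did with fludarabine (86.8, 78.1 and 33.5). SKA1 spread widely with ibrutinib in MEC1 (17.6, 42.5 and 48.0 CPM) and with DMSO in EHEB (12.8, 13.4 and 5.47).

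Of 21 regulators of cell cycle transcription, 3 (14.3%) were lower and 9 (42.9%) higher with fludarabine in MEC1, against 22.7% and 21.2% of all genes. In JVM2 9 (42.9%) were lower and 4 (19%) higher, against 23.3% and 23.9%, and in EHEB 5 (23.8%) and 3 (14.3%), against 19.2% and 18.4%. With ibrutinib 10 (47.6%), 3 (14.3%) and 3 (14.3%) were lower in MEC1, JVM2 and EHEB, against 23.9%, 15% and 11.2%, and 2, 8 and 0 higher, the 8 being 38.1% against 14.5%. With idelalisib 10 (47.6%), 6 (28.6%) and 6 (28.6%) were lower, against 27.4%, 22.6% and 18.2%, and 3, 6 and 0 higher. CDKN1A, an inhibitor of cyclin-dependent kinases and a target of p53, had in MEC1 113, 112 and 115 CPM with DMSO, 184.4, 158 and 176 with fludarabine, 53.6, 46.4 and 53.9 with ibrutinib and 45.2, 50.6 and 49.8 with idelalisib. It rose with fludarabine, by 0.61 log2 units (SE 0.08, adjusted p = 8.5e-05), and fell with ibrutinib and idelalisib, at log2 fold changes of -1.14 and -1.22. In JVM2 it stood at 489, 503 and 503 CPM with DMSO and 1171, 1181 and 393 with fludarabine, a called rise of 0.88 (SE 0.30, adjusted p = 0.0341) in which library JVM2_96 went the other way. In EHEB it stood at 656, 642 and 680.2 and 1856, 569 and 1814 CPM, a change of 1.10 (SE 0.46, adjusted p = 0.082) that was not called, with library EHEB_143 again apart. E2F7, a repressor of cell cycle genes, had 38.5, 46.4 and 37.5 CPM with DMSO and 178, 183.9 and 194 with fludarabine in JVM2, and 92.1, 79.7 and 74.7 and 296, 319.7 and 312 in EHEB. It rose by 2.18 log2 units (SE 0.09, adjusted p = 8.38e-09) and 1.91 (SE 0.07, adjusted p = 2.04e-08), and in MEC1 changed by 0.03 log2 units (SE 0.10, adjusted p = 0.812). With the kinase inhibitors it fell in all 3 lines, at log2 fold changes of -1.30, -0.63 and -0.73 with ibrutinib and -1.33, -1.27 and -1.04 with idelalisib. E2F1, an activator of the G1 to S step, fell in MEC1 with both inhibitors (-1.38 and -1.62) and in JVM2 with fludarabine (-1.60) and idelalisib (-0.73), rose in JVM2 with ibrutinib (0.40) and fell in EHEB with idelalisib (-1.08). RBL2 rose with fludarabine in JVM2 (0.31) and EHEB (0.74) and fell in MEC1 (-0.31). LIN9, a MuvB subunit, fell in JVM2 with fludarabine (-1.07) and idelalisib (-0.62) and in MEC1 with ibrutinib (-0.34). FBXO5, an inhibitor of the anaphase-promoting complex, fell in every comparison with DMSO but fludarabine in MEC1 and ibrutinib in EHEB, most in JVM2 with fludarabine (-1.94).

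The other regulators named for the largest called changes were mostly E2F, RB and NFY family genes, with the MuvB subunits RBBP4 and LIN54 and the E2F partner TFDP2. With fludarabine they were E2F5 (-0.84), NFYB (-0.38), E2F4 (0.84) and RB1 (0.75) in MEC1, E2F2 (-2.16) and E2F8 (-1.97) in JVM2, and E2F5 (-0.88) and E2F2 (-0.64) in EHEB. With ibrutinib RB1 (0.84) and RBL1 (0.23) rose in MEC1, RBBP4 (0.66) and E2F2 (0.64) rose and LIN54 (-0.34) fell in JVM2, and RB1 fell in EHEB (-0.50). With idelalisib RB1 (0.85) and E2F5 (0.52) rose in MEC1, E2F8 (-1.25) fell and RB1 (0.62) and E2F4 (0.59) rose in JVM2, and E2F8 (-1.87) and E2F2 (-1.72) fell in EHEB. Between drugs, CDKN1A and E2F1 were higher with fludarabine than with ibrutinib (1.75 and 1.48) or idelalisib (1.83 and 1.72) in MEC1, where E2F5 (-1.10 and -1.36) and NFYB (-0.53 and -0.44) were lower and E2F2 was lower with idelalisib than ibrutinib (-0.26). In JVM2 E2F7 (2.82 and 3.45) and CDKN1A (1.15 and 1.23) were higher with fludarabine than with ibrutinib or idelalisib. E2F2 (-2.80) and E2F8 (-2.04) were lower with fludarabine than ibrutinib, E2F2 (-1.35) and E2F1 (-0.87) than idelalisib. E2F2 (-1.45) and E2F8 (-1.33) were lower and TFDP2 (0.15) higher with idelalisib than ibrutinib in JVM2, and E2F8 (-1.68) and E2F2 (-1.33) were lower in EHEB. In EHEB E2F7 (2.65) and RBL2 (0.88) were higher with fludarabine than ibrutinib, E2F7 (2.96) and CDKN1A (1.81) than idelalisib, and E2F5 (-0.84 and -0.86) and NFYB (-0.40 and -0.42) were lower than with either.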

How the data were processed

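RNA was measured in 36 libraries of 3 cell lines under 4 treatments, 3 libraries each, grouped by the line and treatment in the sample labels. The deposited values are estimated counts per gene, given as whole numbers. The authors trimmed reads with Trimmomatic, aligned them with HISAT2 2.1 to GRCh38, and estimated counts with StringTie 1.3.4 on Ensembl genes, per the submitters' processing notes and the study's methods. The Ensembl release and the strand setting were not given in the sources used here. Because the counts are estimates, overlapping genes may share reads, and totals need not equal the reads sequenced. The study itself used edgeR 3.22.5.

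The row with no gene symbol (0.00384% of counts) was left out. Totals of 26590705 to 53538925 counts limit precision at low levels only, and depth covers counting error, not culture variation. Within each line edgeR 4.0.16 (R 4.3.3) was run over 12 libraries with TMM scaling, filterByExpr (minimum count 10, minimum total 15) and the quasi-likelihood F-test, with Benjamini-Hochberg adjustment over all genes tested and a threshold of 0.05. CPM are counts scaled to a common total after TMM. The interaction was fitted over 18 libraries per drug. The edgeR steps were run on simulated data with as many genes raised as lowered, which does not test the choice of scaling. Alternatives were DESeq2 1.42.0, library size scaling, no filter, a mean of at least 5 CPM, fits of only the 6 libraries compared, and leaving out each library. Promoters came from RefSeq (GRCh38.p14) and positions from GENCODE 44.

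The members and lists were chosen with earlier results of these data known. Values per library are given for the 3 largest called falls and rises of each comparison, for members called lower in all 9 comparisons with DMSO, for those called against most called members, and for those called in opposite directions in 2 lines. Of the other mitotic genes and regulators, the 2 largest called changes in each direction are named, and CDKN1A, RBL2, LIN9, E2F1 and FBXO5 always. E2F7 is described further because its values were seen. One B cell marker of the original list is not reported here.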

Additional observations from a re-analysis of the deposited data

Results flagged for a closer look

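The effect of a drug differed between the 3 lines, by the interaction test in edgeR over 18 libraries with Benjamini-Hochberg adjustment, for 52 of the 54 members with fludarabine, 35 with ibrutinib and 50 with idelalisib. Of all genes tested 39.1%, 33.6% and 45.7% were called in the same order of drugs. Each line had its own exposure time, and the part of time in these counts cannot be told apart from that of line. Without single libraries the ibrutinib count ran from 27 to 33.

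With fludarabine 7 members were called in opposite directions in different lines, and the share of all genes so called was not counted. The adjusted p given here tests any difference between the lines and not opposite directions. The adjusted p of the difference was 0.00253 for CDC25A, 3.63e-09 for BUB1B, 8.4e-05 for BUB3, 1.04e-06 for PTTG1, 5.44e-08 for ESPL1, 0.00023 for SMC4 and 3.44e-07 for MKI67. With ibrutinib 3 members were, with adjusted p = 7.89e-05 for CCNB1, 2.4e-06 for CDC25A and 1.09e-06 for HMMR. With idelalisib 5 members were, with adjusted p = 2.11e-09 for CCNB1, 3.15e-10 for MAD2L1, 6.08e-07 for NUF2, 6.31e-07 for SPC25 and 8.28e-10 for HMMR. Several opposite directions rested on a call that was lost without single libraries. With fludarabine these were BUB1B and MKI67 in MEC1 and SMC4 in EHEB. The others were CDC25A with ibrutinib in JVM2, and MAD2L1, NUF2 and SPC25 with idelalisib in MEC1. BUB3 lost its lower call with fludarabine in MEC1 by library size scaling (log2 fold change 0.0186).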

How the results depend on the processing

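Library size scaling in place of TMM gave in MEC1 17 members higher and 3 lower with fludarabine, 2 higher with idelalisib, 2 higher and 23 lower for idelalisib against ibrutinib, 4 lower for fludarabine against ibrutinib and 3 lower against idelalisib, and in EHEB 1 higher with ibrutinib. Members called with or without TMM changed sign only under this scaling, all in MEC1, here as log2 fold changes by library size. With fludarabine against DMSO, BUB3 (0.0186), SPC25 (0.0069), SMC4 (0.0454) and NCAPG (0.0299) lost a lower call, and CCNB2 (0.17), NEK2 (0.21), NDC80 (0.24) and TOP2A (0.21) gained a higher one. Against idelalisib CDK1 (0.17) and CCNA2 (0.15) went from lower to higher calls, BUB1 (0.0392) and BUB3 (0.0913) lost a lower call, and CCNB2 (0.25), TTK (0.27), CENPA (0.33), DLGAP5 (0.30) and KIF20A (0.32) gained a higher one. It moved the median of all genes by 0.25 in MEC1 and 0.20 in JVM2 with fludarabine, 0.35, 0.18 and -0.17 in MEC1 for fludarabine against idelalisib, fludarabine against ibrutinib and idelalisib against ibrutinib, and 0.12 or less elsewhere. The share of higher among all called genes went with fludarabine from 48.36 to 74.12% (MEC1), 50.59 to 69.1% (JVM2) and 48.91 to 61.82% (EHEB), from 49.14 to 62.23% in JVM2 and 43.13 to 65.42% in EHEB with ibrutinib, and from 48.83 to 59.5% in JVM2 and 45.34 to 59.55% in EHEB with idelalisib. Between drugs it went from 39.09 to 11.35% (MEC1, idelalisib against ibrutinib), 50.51 to 63.71% and 52.15 to 72.13% (MEC1, fludarabine against ibrutinib and idelalisib) and 49.07 to 62.55% and 49.73 to 61.65% (JVM2, the same). Without a filter 1 member was higher with fludarabine in MEC1, 0 with ibrutinib in JVM2 and 3 for fludarabine against ibrutinib in EHEB. The stricter filter gave 8 higher and 8 lower with fludarabine in MEC1, and the 6 libraries alone 3 higher and 4 lower for idelalisib against ibrutinib in MEC1. Leaving out single libraries gave 1 to 3 higher and 9 to 18 lower with fludarabine in MEC1, 2 to 5 higher with idelalisib in MEC1, 2 to 7 higher and 6 to 15 lower for idelalisib against ibrutinib in MEC1, 0 to 1 higher with ibrutinib in JVM2, 16 to 28 lower with ibrutinib in EHEB and 3 to 10 higher for fludarabine against ibrutinib in EHEB. The cause of these moves was not tested. Of 972 member comparisons DESeq2 left 950 the same, and of 11664 with a library left out 11159 stayed the same. Of the 11664, 433 lost the call, 72 gained it and 0 reversed. The same includes comparisons called in neither fit, whatever their sign. The library left out could be any of its line, also one outside the comparison, which raises the share that stayed the same. No paired analysis was possible because the groups share no replicate numbers. Low counts limit CDC25C, CENPA, BIRC5 and SPC25 in EHEB and SPC25 in JVM2, and among the other mitotic genes PSRC1 in EHEB and PIMREG and DEPDC1 in JVM2. In JVM2 with fludarabine CDC25C, CENPA, NUF2 and ANLN also stood below 2 CPM in every library.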
